A study of Homo sapiens with 4 samples.

Results

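The EGF receptors and their ligands, 4 receptor genes (EGFR, ERBB2, ERBB3 and ERBB4) and 6 ligand genes (EGF, TGFA, AREG, EREG, HBEGF and BTC), were followed in KYSE410 cells under inflammatory stimuli. The genes were taken by family membership. RefSeq accessions placed 14 probe sets in these 10 genes, out of 17185 genes that could be named on the array. KYSE410 is a human cell line derived from a squamous carcinoma of the oesophagus, and the experiment looked for messenger RNAs that respond to inflammatory stimuli. The cells were kept for 24 h with the cytokine TNFα (tumour necrosis factor α), the cytokine IL1β (interleukin 1β), LPS (lipopolysaccharide, a bacterial outer membrane component) or the solvent PBS (phosphate-buffered saline) as control. All cultures grew in the same serum-containing medium, and no label states the doses. Each condition was read on 1 single-colour NimbleGen array, so no value below has a replicate error and no test was possible.

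The receptors are membrane tyrosine kinases that act in pairs. EGFR binds EGF, TGFα and amphiregulin, whereas HB-EGF, betacellulin and epiregulin bind EGFR and ERBB4. ERBB2 has no known ligand and serves as a partner, and ERBB3 binds neuregulins but has little kinase activity of its own. The ligands are made as membrane proteins and are released by metalloproteinases, above all ADAM17, after which the receptors signal through RAS-ERK and PI3K-AKT. In squamous epithelium, EGFR signalling drives proliferation of the basal layer, and amphiregulin, TGFα and HB-EGF are its usual autocrine ligands.

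Values are RMA intensities, given on the linear or the log2 scale as stated. A gene is called higher or lower only where its intensities on 2 arrays were at least 2-fold apart and the brighter one reached a floor of 8.02 on the log2 scale (260 on the linear scale), the median of all named genes. A value under 2 times the random-sequence control probes of its own array (limits of 112 with TNFα, 112 with IL1β, 113 with LPS and 108 with PBS on the linear scale) is called near background. Different probe sets bind with different strength, so levels were compared between arrays and never between genes.

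The arrays were alike in their bulk, with median log2 differences over all named genes between -0.03 and 0.05 for the 6 pairs of arrays. All 12 epithelial and squamous markers reached the floor on all 4 arrays, so the cells carried the markers of their labelled type. By their brightest probe sets, 3 of these were called against PBS, all higher with LPS: TP63 (2.79-fold), KRT14 (2.38-fold) and KRT17 (2.12-fold). The dimmer probe set of JUP also passed the rule, at 2.29-fold higher with TNFα, 2.26-fold with IL1β and 2.44-fold with LPS. Markers of other cell types were present as well. Of 7 cardiac muscle markers, 6 reached the floor with TNFα, 6 with IL1β, 3 with LPS and 6 with PBS. The summed linear intensity of the 7 was 50431 with TNFα, 58316 with IL1β, 14350 with LPS and 38182 with PBS. Such sums follow the brightest probe sets. With LPS, ACTC1 alone had 12945 and was 1.39-fold lower than with PBS, and MYL7 was 1.28-fold higher. MYH6 was at least 83.9-fold, MYH7 at least 32.5-fold, TNNI3 12.3-fold and TNNT2 11.05-fold lower with LPS than with PBS. Of 10 leukocyte markers, 5 reached the floor with TNFα, 6 with IL1β, 1 with LPS and 3 with PBS, with sums of 11469, 14490 and 1157 on the stimulated arrays and 9171 with PBS. With LPS, 7 of the 10 were near background, and LYZ, the brightest of them with PBS, was 33.1-fold lower than with PBS. PTPRC was at least 11.97-fold higher than with PBS with TNFα and at least 9.67-fold with IL1β. FCGR3A was 13.7-fold and 3.44-fold higher with these cytokines, and CSF1R 3.08-fold higher with IL1β. Not all leukocyte markers were higher. Of those at the floor with TNFα or PBS, 3 lay above PBS and 2 below. With IL1β, 5 lay above and 1 below. CD68 was lower with both, by 1.95-fold with TNFα and 1.61-fold with IL1β, short of 2-fold. Fibroblast sums lay between 976 with LPS and 1711 with TNFα over 8 markers, and endothelial sums between 615 with TNFα and 1125 with PBS over 6. All 3 stimulated arrays therefore differed from PBS in such transcripts too, and their part in the differences of the receptors and ligands was not tested.

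Among the receptors, ERBB3 was lower with LPS than with PBS, and EGFR, by its brightest probe set, was lower with LPS than with TNFα or IL1β. Of the 4 EGFR sets, 3 passed the 2-fold rule against TNFα and 2 against IL1β. No receptor was higher on a stimulated array than on the PBS array by the 2-fold rule. In whole-culture RNA, fewer cells of a type and less RNA per cell cannot be told apart. ERBB2 differed by less than 2-fold between any 2 arrays, and ERBB4 was near background on all 4 arrays.

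EGFR, the receptor for all 6 of these ligands, was read by 4 probe sets. The brightest, for the transcript NM_201283, had linear intensities of 10850 with TNFα, 10762 with IL1β and 4568 with LPS, against 8471 with PBS. The LPS array was thus the low one. Its log2 difference from PBS was -0.89, a 1.85-fold lower intensity that misses the 2-fold rule, and 20.7% of the 9675 genes at the floor differed by at least as much. LPS against TNFα gave -1.25 (2.38-fold lower, with 9.49% of 9655 genes differing as much), and LPS against IL1β gave -1.24 (2.36-fold lower, 10.7% of 9707 genes). The cytokine arrays were close to PBS, with log2 differences of 0.36 for TNFα and 0.35 for IL1β.

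The other EGFR probe sets placed the LPS array lowest as well. NM_201282 had log2 intensities of 13.32 with TNFα, 13.10 with IL1β and 12.26 with LPS, against 13.16 with PBS. NM_201284 had 12.83, 12.82 and 11.61 on the same arrays, against 12.60 with PBS. In RefSeq these transcripts and NM_201283 encode shortened, secreted forms of the receptor. The set for NM_005228, the transcript of the full-length receptor, differed less, with 11.12 with TNFα, 10.80 with IL1β and 10.44 with LPS, against 10.76 with PBS. Its LPS minus PBS log2 difference was -0.32, against -0.89 for NM_201282 and -0.98 for NM_201284. LPS against TNFα gave -0.69 for NM_005228, and LPS against IL1β gave -0.36 for NM_005228 and -0.83 for NM_201282, all short of 2-fold. With the mean of all 4 sets EGFR was no longer called between LPS and IL1β, and it was still called between LPS and TNFα. No source used here places the probes within the transcripts. A set may thus also bind other transcripts of the gene, and the 4 sets share their RNA and are not replicates. Across all 622 genes whose second probe set also had a mean at the floor, the LPS minus PBS difference varied between the first and the second set with an SD of 0.70 on the log2 scale.

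**Figure D1:**
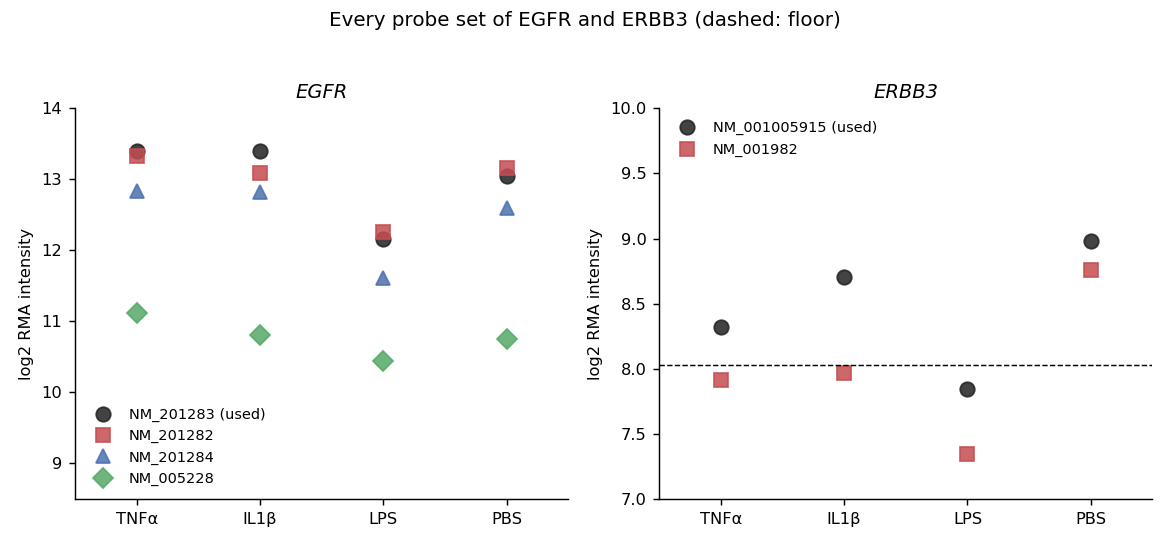
Log2 RMA intensity of every probe set of EGFR (4 sets) and ERBB3 (2 sets) on the TNFα, IL1β, LPS and PBS arrays, 1 point per array. For all 6 sets the LPS array is the lowest, and the PBS array is the highest for both ERBB3 sets.

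ERBB3, the neuregulin receptor that signals mainly through PI3K, had linear intensities of 320 with TNFα, 417 with IL1β and 230 with LPS, against 505 with PBS, by its brighter set (NM_001005915, a short secreted form in RefSeq). The PBS array was the highest of the 4 and the LPS array the only one below the floor. LPS against PBS gave a log2 difference of -1.13 (2.19-fold lower), and 12.5% of genes at the floor differed by at least as much. The set for the full-length transcript NM_001982 had 241, 250 and 162 on the stimulated arrays, against 433 with PBS. Its LPS minus PBS log2 difference was -1.41 (2.67-fold lower). With TNFα the differences of the 2 sets were -0.66 and -0.85, and with IL1β -0.28 and -0.79, all short of 2-fold.

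ERBB2, the ligandless partner receptor, had linear intensities of 433 with TNFα, 347 with IL1β and 473 with LPS, against 658 with PBS. Its single probe set was highest with PBS, and no difference reached 2-fold. The widest was IL1β against PBS, with a log2 difference of -0.93 (1.90-fold lower), and 8.23% of the 9427 genes at the floor differed by as much. TNFα against PBS gave -0.60 and LPS against PBS -0.48. ERBB4, which binds neuregulins as well as several EGF-like ligands, had 39.2, 40.9 and 60.9 with the stimuli, against 53.2 with PBS, all of them near background. No order can be read from these values.

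**Figure D2:**
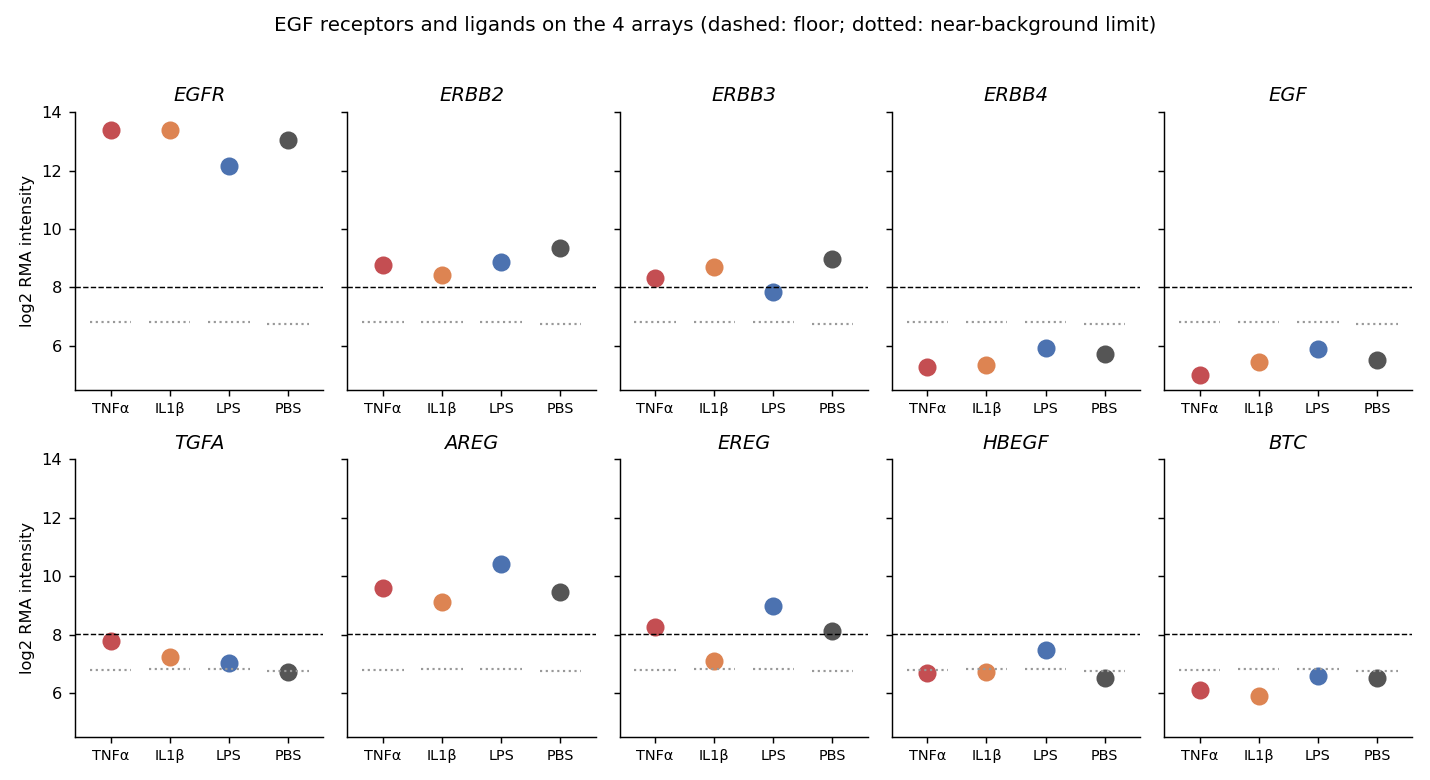
Log2 RMA intensity of the 4 receptor and 6 ligand genes (brightest probe set of each) on the TNFα, IL1β, LPS and PBS arrays, 1 point per array, with the floor dashed and the near-background limit of each array dotted. EGFR, ERBB2 and AREG stand above the floor on all 4 arrays, while ERBB4, EGF and BTC lie under the near-background limit on all 4.

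Among the ligands, AREG and EREG had their highest values with LPS and their lowest with IL1β. EREG was lower with IL1β than with PBS, and both genes were higher with LPS than with IL1β. The genes lie side by side on chromosome 4, in the order EPGN, EREG, AREG and BTC with no other protein-coding gene between them in RefSeq. AREG and EREG shared their highest and lowest arrays, and whether their position has a part in this was not tested. Between those arrays, the order of TNFα and PBS rests on small log2 differences (0.13 and 0.17). The 250 bases before the RefSeq starts of AREG and EREG (GRCh38.p14, the build of the sequence table, since no build is stated for the arrays) are shown. EGFR, whose highest and lowest arrays were different, is added for contrast. The sequences run 5′ to 3′ on the strand of the gene, and capitals mark matches to the motifs described after them.
AREG (chr4:74444886-74445135, plus strand): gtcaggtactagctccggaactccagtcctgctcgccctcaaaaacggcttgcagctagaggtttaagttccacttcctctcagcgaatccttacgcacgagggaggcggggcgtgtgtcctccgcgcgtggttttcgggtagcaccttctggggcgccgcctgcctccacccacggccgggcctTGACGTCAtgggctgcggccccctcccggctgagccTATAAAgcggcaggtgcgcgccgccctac
EREG (chr4:74364895-74365144, plus strand): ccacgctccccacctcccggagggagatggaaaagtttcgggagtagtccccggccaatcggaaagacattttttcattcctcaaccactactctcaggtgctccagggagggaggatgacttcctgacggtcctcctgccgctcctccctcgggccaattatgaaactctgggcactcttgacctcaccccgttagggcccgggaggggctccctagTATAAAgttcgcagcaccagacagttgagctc
EGFR (chr7:55018767-55019016, plus strand): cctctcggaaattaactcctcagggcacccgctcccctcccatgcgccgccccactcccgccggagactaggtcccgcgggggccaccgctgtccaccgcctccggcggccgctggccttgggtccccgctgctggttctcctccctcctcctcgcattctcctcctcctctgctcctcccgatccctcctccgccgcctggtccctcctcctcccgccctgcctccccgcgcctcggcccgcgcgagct

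Promoters were found for 9 of the 10 genes and were searched on both strands for TGANTCA (AP-1), TGACGTCA (the cAMP response element), TATAAA (the TATA box) and the NF-κB consensus. No match overlapped one of another motif. AREG held TGACGTCA at 65 to 58 bases and TATAAA at 29 to 24 bases before its start. EREG held TATAAA at 32 to 27 bases before its start. Over all 35116 promoters of the same length, 1.65% held TGACGTCA and 10.7% held TATAAA, anywhere in the window and on either strand. In a narrow stretch around the place of the AREG and EREG matches, fewer promoters held TATAAA on the gene's own strand. The shares were 2.18% of plus-strand and 2.44% of minus-strand promoters. None of the motifs searched was in the EGFR window, in which G and C made up 73.6% of bases, against 65.2% in AREG and 58% in EREG. Of the other genes, ERBB2 held TGANTCA at 222 to 216 bases and EGF at 17 to 11 bases before the start, a motif that 6.57% of promoters held. The NF-κB consensus was in the windows of TGFA (219 to 210 bases before the start, on both strands) and BTC (90 to 81 and 23 to 14 bases), and in 9.96% of all promoters. A match is a description of these letters only.

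AREG, which encodes amphiregulin, had linear intensities of 779 with TNFα, 549 with IL1β and 1368 with LPS, against 711 with PBS. The LPS array stood above the other 3. Against PBS its log2 difference was 0.94 (1.92-fold, short of the 2-fold rule), and 18.3% of genes at the floor differed by as much. Against IL1β it was 1.32 (2.49-fold higher with LPS, 8.98% of genes), and against TNFα 0.81. TNFα differed from PBS by 0.13 and IL1β by -0.37.

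EREG, which encodes epiregulin, had linear intensities of 310 with TNFα, 136 with IL1β and 502 with LPS, against 276 with PBS. The IL1β array was the low one, under the floor but above background. IL1β against PBS gave a log2 difference of -1.02 (2.03-fold lower), just past the 2-fold rule, and 6.45% of genes at the floor differed by as much. LPS against IL1β gave 1.89 (3.70-fold higher, 2.99% of genes), the largest difference of any of the 10 genes between 2 arrays, and TNFα against IL1β gave 1.19 (2.28-fold higher, 2.14% of 9270 genes). LPS against PBS was 0.86 and TNFα against PBS 0.17, both short of 2-fold.

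HBEGF, the heparin-binding ligand, stood above background with LPS (178, linear scale) and was near background with TNFα (103), with IL1β (106) and with PBS (92.1). LPS against PBS was at least 1.65-fold, computed against the near-background limit, and no value reached the floor. TGFA, transforming growth factor α, had 221 with TNFα, 150 with IL1β and 130 with LPS, against 105 with PBS, which was near background. TNFα against PBS was at least 2.04-fold, but all 4 values were below the floor, so the gene was not called. The TNFα array was highest for TGFA, unlike AREG, EREG and HBEGF, which were highest with LPS.

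EGF itself was near background throughout, with 32 with TNFα, 43.7 with IL1β and 59.7 with LPS, against 45.9 with PBS on the linear scale. BTC, betacellulin, had 68.8, 59.2 and 95 with the stimuli, against 90.8 with PBS, also near background on all 4 arrays. At such intensities neither presence nor absence of these transcripts can be read from the arrays.

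The counts of called genes per comparison were small. In each of the 6 comparisons 5 of the 10 genes reached the floor: EGFR, ERBB2, ERBB3, AREG and EREG. TNFα against PBS called none of them, beside 6.76% of 9419 genes at the floor (3.37% higher and 3.4% lower). IL1β against PBS called 1, EREG as lower, beside 6.7% of 9427 genes (3.13% higher and 3.57% lower). LPS against PBS called 1, ERBB3 as lower, beside 16.2% of 9675 genes (8.83% higher and 7.42% lower). With so few members, a count of 1 of 5 is not set apart from these shares.

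Between stimuli, TNFα against IL1β called EREG as higher, beside 3.6% of 9270 genes (1.87% higher and 1.74% lower). LPS against TNFα called EGFR as lower, beside 17% of 9655 genes (9.93% higher and 7.09% lower). LPS against IL1β called EGFR as lower and AREG and EREG as higher, which is 3 of 5 at the floor, beside 18% of 9707 genes (10.5% higher and 7.45% lower). These comparisons share arrays with those against PBS, so a single array that stands apart enters several of them.

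Between LPS and PBS, receptors and ligands at the floor had differences of opposite sign. At a 1.5-fold threshold 4 of the 5 genes at the floor differed between LPS and PBS, EGFR and ERBB3 lower and AREG and EREG higher, beside 38.6% of genes (20.9% higher and 17.7% lower). The median log2 difference of the 3 receptors at the floor was -0.89 and that of the 2 ligands at the floor 0.90. Over all genes at the floor it was 0.05. The receptor median is the value of the brightest EGFR set, beside -0.48 for ERBB2 and -1.13 for ERBB3. Of genes at the floor, 47.3% differed by as much as ERBB2. By NM_005228, the set for the full-length transcript, EGFR differed by -0.32, short of 1.5-fold, and 63.1% of genes differed by as much. The sets NM_201282 (-0.89) and NM_201284 (-0.98) passed 1.5-fold. The count of 4 and the receptor median thus depend on the EGFR set used. With TNFα the same medians were -0.60 for receptors and 0.15 for ligands, against -0.07 over all genes at the floor. With IL1β they were -0.28 and -0.70, against -0.05. The IL1β receptor median is the value of the brighter ERBB3 set. The other ERBB3 set gave -0.79 with IL1β, past 1.5-fold, so this median depends on the ERBB3 set used. Over all 10 genes the median was -0.13 with TNFα, -0.32 with IL1β and 0.26 with LPS, against -0.03, -0.03 and 0.02 over all named genes. No direction is read from these last medians, since ERBB4, EGF and BTC were near background on all 4 arrays. By their brightest sets, ERBB2 and ERBB3 were at least 1.5-fold lower with TNFα, beside 11.6% of genes, and ERBB2 and EREG with IL1β, beside 11.7%.

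**Figure D3:**
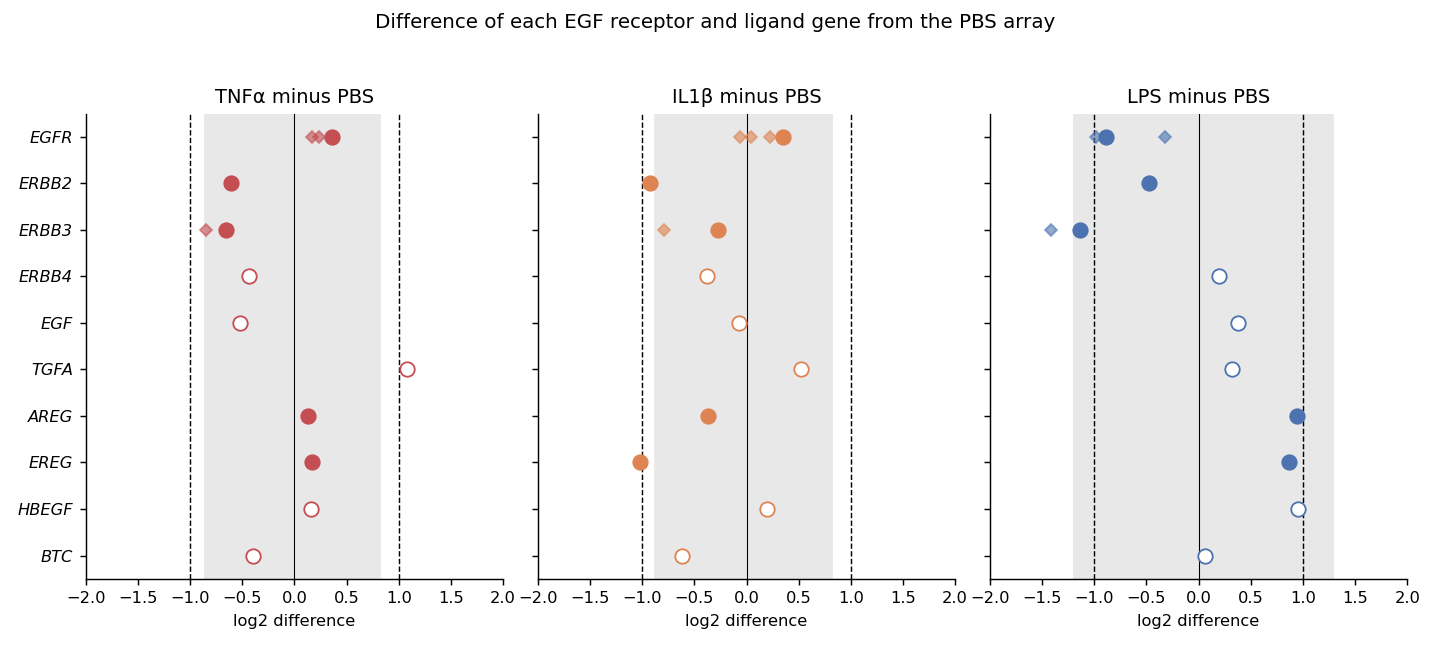
Log2 difference of each receptor and ligand gene from the PBS array, in 1 panel per stimulus. Circles are the brightest probe set of a gene and diamonds its other sets, hollow symbols lie below the floor on both arrays, dashed lines mark 2-fold, and grey spans the central 90% of genes at the floor. With LPS, the filled receptor circles lie left of 0 and the filled ligand circles right of it, and ERBB3 alone passes 2-fold.

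The rest of the family and its pathway was taken from lists of genes by role. Of the 5 other EGF family ligands none was called against PBS by its brightest probe set. Only NRG1, a neuregulin that binds ERBB3 and ERBB4, reached the floor by its brightest set, with linear intensities of 1313 with TNFα, 830 with IL1β and 1041 with LPS, against 1249 with PBS. The 7 probe sets of NRG1 disagreed in direction in every comparison, with log2 differences from -0.26 to 1.36 for LPS against PBS, from -1.09 to 0.52 for TNFα and from -0.97 to 0.67 for IL1β. One of the dimmer sets, NM_013956, passed the rule, at 2.56-fold higher with LPS than with PBS. EPGN (epigen, next to EREG) was near background at 86.9, 84.6 and 88.6 with the stimuli, against 86.7 with PBS. NRG2 was near background as well, at 51.8, 87.1 and 89.2, against 62 with PBS. NRG3 had 107, 116 and 71.4, against 99.3 with PBS, and was near background on all arrays except that of IL1β. NRG4 had 250, 203 and 157, against 203 with PBS.

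Among genes of ligand release, ADAM17, the main sheddase of AREG, EREG, HBEGF and TGFA precursors, was higher with each stimulus. Its linear intensity was 3117 with TNFα, 2209 with IL1β and 4359 with LPS, against 1082 with PBS. The log2 differences were 1.53 (2.88-fold), 1.03 (2.04-fold) and 2.01 (4.03-fold), and they share the single PBS array. Of 7 measured genes in this list, 5 reached the floor with TNFα or PBS, and 1 of them was higher and none lower, beside 3.37% and 3.4% of all genes at the floor. With IL1β it was likewise 1 higher and none lower of 5, beside 3.13% and 3.57%. With LPS 2 were higher and 2 lower of 6, beside 8.83% and 7.42%. TIMP3 was among the 6 only through its LPS value. The others called with LPS were TIMP3, an inhibitor of ADAM17 (at least 3.84-fold higher), RHBDF2, which escorts ADAM17 to the cell surface (2.56-fold lower), and ADAM10, which sheds EGF and BTC precursors in mouse cells (2.09-fold lower).

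Of 19 adaptors and relay genes, 17 reached the floor in each comparison with PBS. Among these, 1 was higher and 1 lower with TNFα and with IL1β, beside 6.76% and 6.7% of all genes at the floor called in either direction. With LPS none was higher and 5 were lower, beside 8.83% and 7.42%. PTPN11, the phosphatase SHP2 that links receptors to RAS, was lower with all 3 stimuli, in differences that share the single PBS array. It had linear intensities of 281 with TNFα, 261 with IL1β and 386 with LPS, against 1625 with PBS. PIK3R1, a regulatory subunit of PI3K, had 1041 with TNFα, 799 with IL1β and 290.3 with LPS, against 265.8 with PBS, so it was higher with the cytokines (3.92-fold and 3.01-fold). With LPS, SOS1, an exchange factor for RAS, was 3.84-fold lower, the kinase SRC 2.78-fold lower and AKT2 2.69-fold lower. The median log2 difference of the 17 was 0.03 with TNFα, 0.02 with IL1β and -0.20 with LPS, against -0.07, -0.05 and 0.05 over all genes at the floor.

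Of 14 feedback inhibitors and endocytosis genes, 9 reached the floor in each comparison with PBS. Among these, 1 was lower with TNFα, 1 with IL1β, and 2 were lower and 1 higher with LPS, beside 6.76%, 6.7% and 16.2% of all genes at the floor called in either direction. SPRY4, a Sprouty inhibitor of RAS-ERK signalling, was lower each time, with linear intensities of 299 with TNFα, 136 with IL1β and 133 with LPS, against 616 with PBS. These differences share the single PBS array. SPRED2, another inhibitor of RAS-ERK signalling, was 2.19-fold lower with LPS. ERRFI1 (MIG6), which binds and inhibits the EGFR kinase, was the higher gene, at 3320 with LPS against 1298 with PBS (2.56-fold). The median log2 difference of the 9 was -0.18 for TNFα, -0.13 for IL1β and -0.11 for LPS, against -0.07, -0.05 and 0.05 over all genes at the floor.

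Of 12 genes that respond to ERK, 10 reached the floor with TNFα or PBS, and 3 of them were lower and none higher, beside 3.4% and 3.37% of all genes at the floor. With IL1β 1 of 10 was lower and none higher, beside 3.57% and 3.13%, and with LPS 2 of 11 were lower and 1 higher, beside 7.42% and 8.83%. ETV5, an ETS factor downstream of ERK, was lower with all 3. It had linear intensities of 129 with TNFα, 137 with IL1β and 80.3 with LPS, against 308 on the single PBS array. The LPS value of ETV5 was near background, so it is read as at least 2.73-fold lower than with PBS. FOSL1, an AP-1 subunit, had 2191, 3002 and 2207 with the stimuli, against 4919 with PBS, and was called as lower with TNFα (2.24-fold) and with LPS (2.23-fold). PHLDA1 was 2.59-fold lower with TNFα, and FOS was 3.37-fold higher with LPS. FOS had linear intensities of 213 with TNFα, 247 with IL1β and 432 with LPS, against 128 with PBS, so it reached the floor with LPS only. Each of the 10 genes at the floor had a value below PBS with TNFα and with IL1β. FOS, under the floor in both, lay 1.66-fold and 1.93-fold above PBS. Both counts share the single PBS array. A majority of all genes at the floor also lay below PBS with each cytokine, since their medians were negative. With LPS 7 of the 11 lay below PBS. For genes of this list at the floor, TNFα gave a median of -0.43, IL1β -0.32 and LPS -0.52, against -0.07, -0.05 and 0.05 over all genes at the floor.

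**Figure D4:**
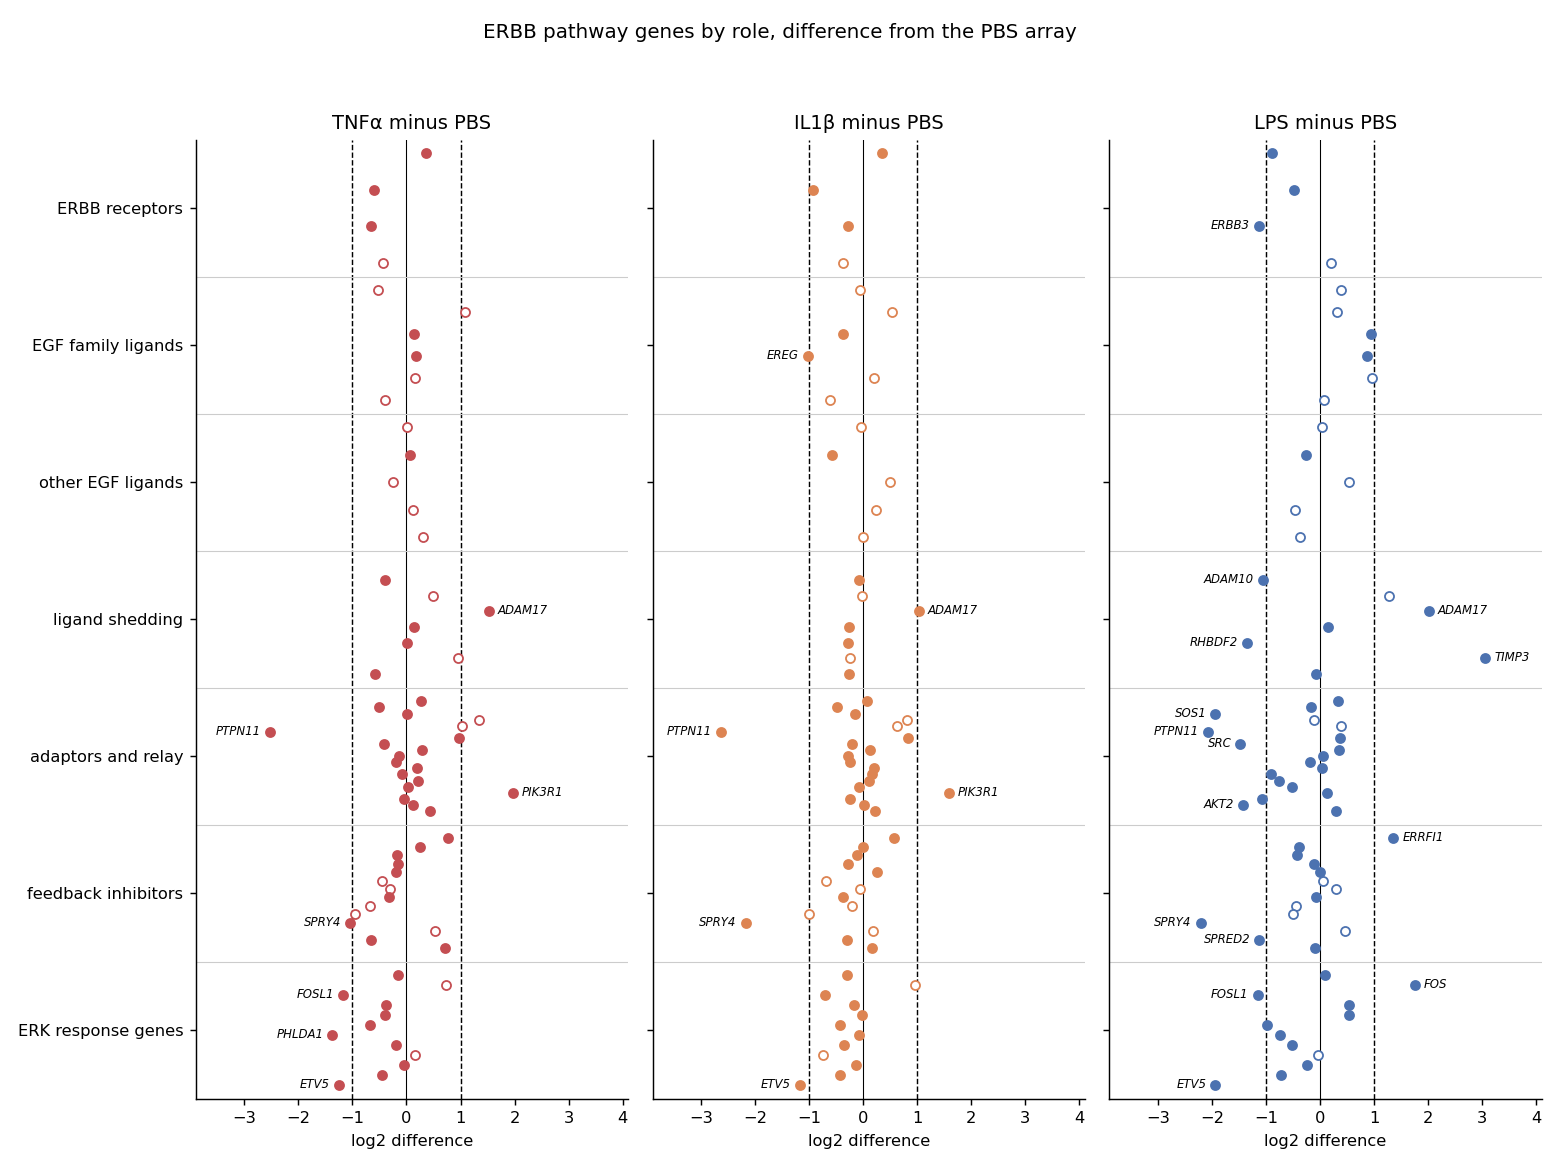
Log2 difference from the PBS array of each gene of the ERBB pathway lists, in 1 panel per stimulus and 1 band per role. Hollow points lie below the floor on both arrays, dashed lines mark 2-fold, and up to 4 called genes per band are named. ADAM17 lies right of the 2-fold line in each panel, and PTPN11, SPRY4 and ETV5 lie left of it in each. All panels share the single PBS array.

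Of the family, EGFR, ERBB3, AREG and EREG varied at least 2-fold over the arrays and reached the floor, and their profiles were set beside those of 10266 other genes. Likeness was the root mean square distance between log2 profiles, each centred on its own mean over the 4 arrays. REEP6 (0.032), MCRIP1 (0.034) and DMRTC1 (0.034) were closest to EGFR. SPRED2 (0.013) and ACTG2 (0.039) were among the closest to ERBB3. MED7 (0.024), NFIL3 (0.033) and PEA15 (0.036) were closest to AREG, and NDUFA11 (0.072), BEX3 (0.074) and BMERB1 (0.083) to EREG. With 4 arrays close profiles are common: 679 genes lay within 0.25 of EGFR, 812 of ERBB3, 846 of AREG and 79 of EREG.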

How the data were processed

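Per the labels' protocols, cDNA made from total RNA of each culture carried Cy3 and went onto a one-colour NimbleGen array. Per the file headers and names, the authors deposited 1 linear RMA intensity for each probe set, and a further column named as a standard error, of unstated definition, was not used. No source used here names the software, its version or the probe positions. The deposited series table held the same intensity values for all 45033 probe sets.

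Accessions were matched without versions to RefSeq (GRCh38.p14, names only). Of all probe sets 18866 (41.9%) matched 1 symbol. A gene took its probe set of highest mean log2 intensity. Differences of log2 intensities were computed over all named genes with the 2-fold rule and floor. The rule was also run on simulated arrays with known changes and an assumed noise. Replicate noise is not known for these arrays, so that run gives no rate of false calls in them. With 1 array per condition there was no replicate and no test, and the number of arrays limits precision. RMA in its usual form equalises the distributions of arrays, which makes each difference relative to most other genes. The members, lists and floor were chosen with earlier results of these data known. All 10 members were named, with up to 4 genes per pathway list and comparison by size of difference, all other EGF family ligands, and the 3 nearest profiles of each member spanning at least 1 on the log2 scale, of which 1 is not reported here. The near-background limit was added after the data had been seen. One listed gene was not analysed here. Alternatives covered the floor, fold, probe set, centring, normalization, offset and source table. The tools were Python 3.11.15 with pandas 2.3.3, numpy 2.4.6, matplotlib 3.10.9 and statsmodels 0.14.6.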

Additional observations from a re-analysis of the deposited data

How the results depend on the processing

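Of 54 recomputed counts of members called, 38 stayed within 1.5 times the reported one and 16 did not. Without a floor, TNFα against PBS called 1 gene, TGFA, in place of 0. A floor at the 75th percentile (9.56 on the log2 scale) gave 0 for IL1β and for LPS against PBS and 0 for TNFα against IL1β, since EREG and ERBB3 lie under it. An offset of 50.9 added before log2 also gave 0 in these 3 comparisons, so the calls of EREG with IL1β and of ERBB3 with LPS depend on it. At 1.5-fold the counts were 2 for TNFα, 2 for IL1β and 4 for LPS against PBS, and 3 for LPS against TNFα. At 3-fold they were 0, except 1 (EREG) for LPS against IL1β. Loess, repeated quantile normalization and the series table called the same genes in all 6 comparisons. The mean of all probe sets did so in 5, and in LPS against IL1β it lost EGFR (2 calls in place of 3). There the 75th percentile floor also left 2, without EREG. All 30 recomputed medians moved by less than the disagreement between probe sets, scaled to a median of 10 genes. That allowance is wider than some of the medians themselves, and medians from the identical series table could not move. This comparison is therefore a weak one. No difference of a member from PBS changed sign in 150 recomputations, with shifts from -0.27 to 0.30. Many of these could not change sign, so the count is no measure of stability. The series table held identical values (30 recomputations), and an offset keeps the order of arrays within a probe set (30 recomputations). The mean of all probe sets changed nothing for the 8 members with 1 set. Of the other probe sets, 1 (NM_201282 of EGFR with IL1β) gave -0.06 where the brightest set gave 0.35. This use of other probe sets was chosen after seeing the data. No array could be left out, since each comparison rests on 2. No paired analysis was possible because each condition has 1 array. Signal over background limits ERBB4, EGF, BTC, HBEGF and TGFA.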
